A study of Mus musculus with 12 samples.

Results

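Capillary content was examined through 9 genes that mark endothelial cells: Pecam1, Cdh5, Tek, Tie1, Kdr, Flt1, Eng, Icam2 and Vwf. The members were all probe sets whose platform annotation names one of these genes, which gave 12 of the 12422 probe sets and 9 of the 8251 named genes. RNA came from skeletal muscle of mice aged 3 weeks. The line C57BL/10-SJL.Dysf, labelled Dysf -/- and called Dysf_null here, carries the dysferlin allele of the SJL strain throughout the body, and C57BL/10 mice, labelled Dysf +/+, were the controls. From each genotype the muscles labelled QF and TA, read here from general usage as quadriceps femoris (proximal) and tibialis anterior (distal), were taken, with 3 arrays in each of the 4 groups (Dysf_null_QF, Control_QF, Dysf_null_TA, Control_TA). The question, from the series title, is whether dysferlin loss shifts expression differently along the limb. Whether the 3 replicates in each group are different mice is not said in the labels, so every p-value reflects only how far these arrays scatter, part of which may be technical.

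Skeletal muscle is supplied by a dense bed of capillaries that run along the fibres, and their wall is a single layer of endothelial cells. Endothelial identity rests on receptors for the VEGF family (Kdr and Flt1) and for the angiopoietins (Tek, with its partner Tie1), which drive vessel growth and keep vessels quiescent. It also rests on the junction proteins that hold the cells together (Pecam1, Cdh5 and Icam2), on the TGF-beta co-receptor Eng, and on Vwf, the clotting glycoprotein they store. In whole muscle, fewer endothelial cells and less RNA per endothelial cell cannot be told apart.

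All 9 genes were measured, by 11 probe sets that exceeded a floor value on 3 arrays or more. The floor is the 25th percentile of all normalized values, log2 4.53, and an array at the floor has only an upper bound. Of the 12 probe sets, 8 lay above it on all 12 arrays. The second Vwf probe set, 97052_at, was above it on 2 arrays (6.46 on Dysf_null_QF 2 and 4.54 on Dysf_null_TA 1) and was not tested. Of 10 markers of the muscle fibre 9 were measured, and 0 of these lay at the floor throughout a group. Apart from the rest stood 2 libraries, the second QF array of each genotype, with a median correlation with the other arrays of 0.876 and 0.866, against 0.926 to 0.959 for the other 10. Several member results are also given without them. The values of the other gene lists are given with them only.

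No member passed the test between genotypes or between muscles in any of the 7 comparisons made. With limma, 0 of the 11 probe sets had an adjusted p under 0.05 for Dysf_null against Control in QF (0.455% of all 10331 tested probe sets did), in TA (0.407%) or averaged over both muscles (1.09%). The same count, 0 of 11, held for TA against QF in Control (background 0.736%), in Dysf_null (0.3%) and averaged over both genotypes (1.11%), and for the interaction, which sets the TA genotype effect against the QF one (0.0678%). At an unadjusted p under 0.05 there were 1, 0, 1, 2, 0, 2 and 0 members in these comparisons, in that order, against 6.77%, 4.82%, 7.63%, 9.86%, 5.72%, 13% and 3.05% of all probe sets. With replicate number as a blocking term inside a muscle, the calls over all probe sets went from 47 to 273 in QF, from 42 to 159 in TA, from 113 to 474 averaged and from 7 to 32 for the interaction, and the members called stayed at 0 in each.

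**Figure D1:**
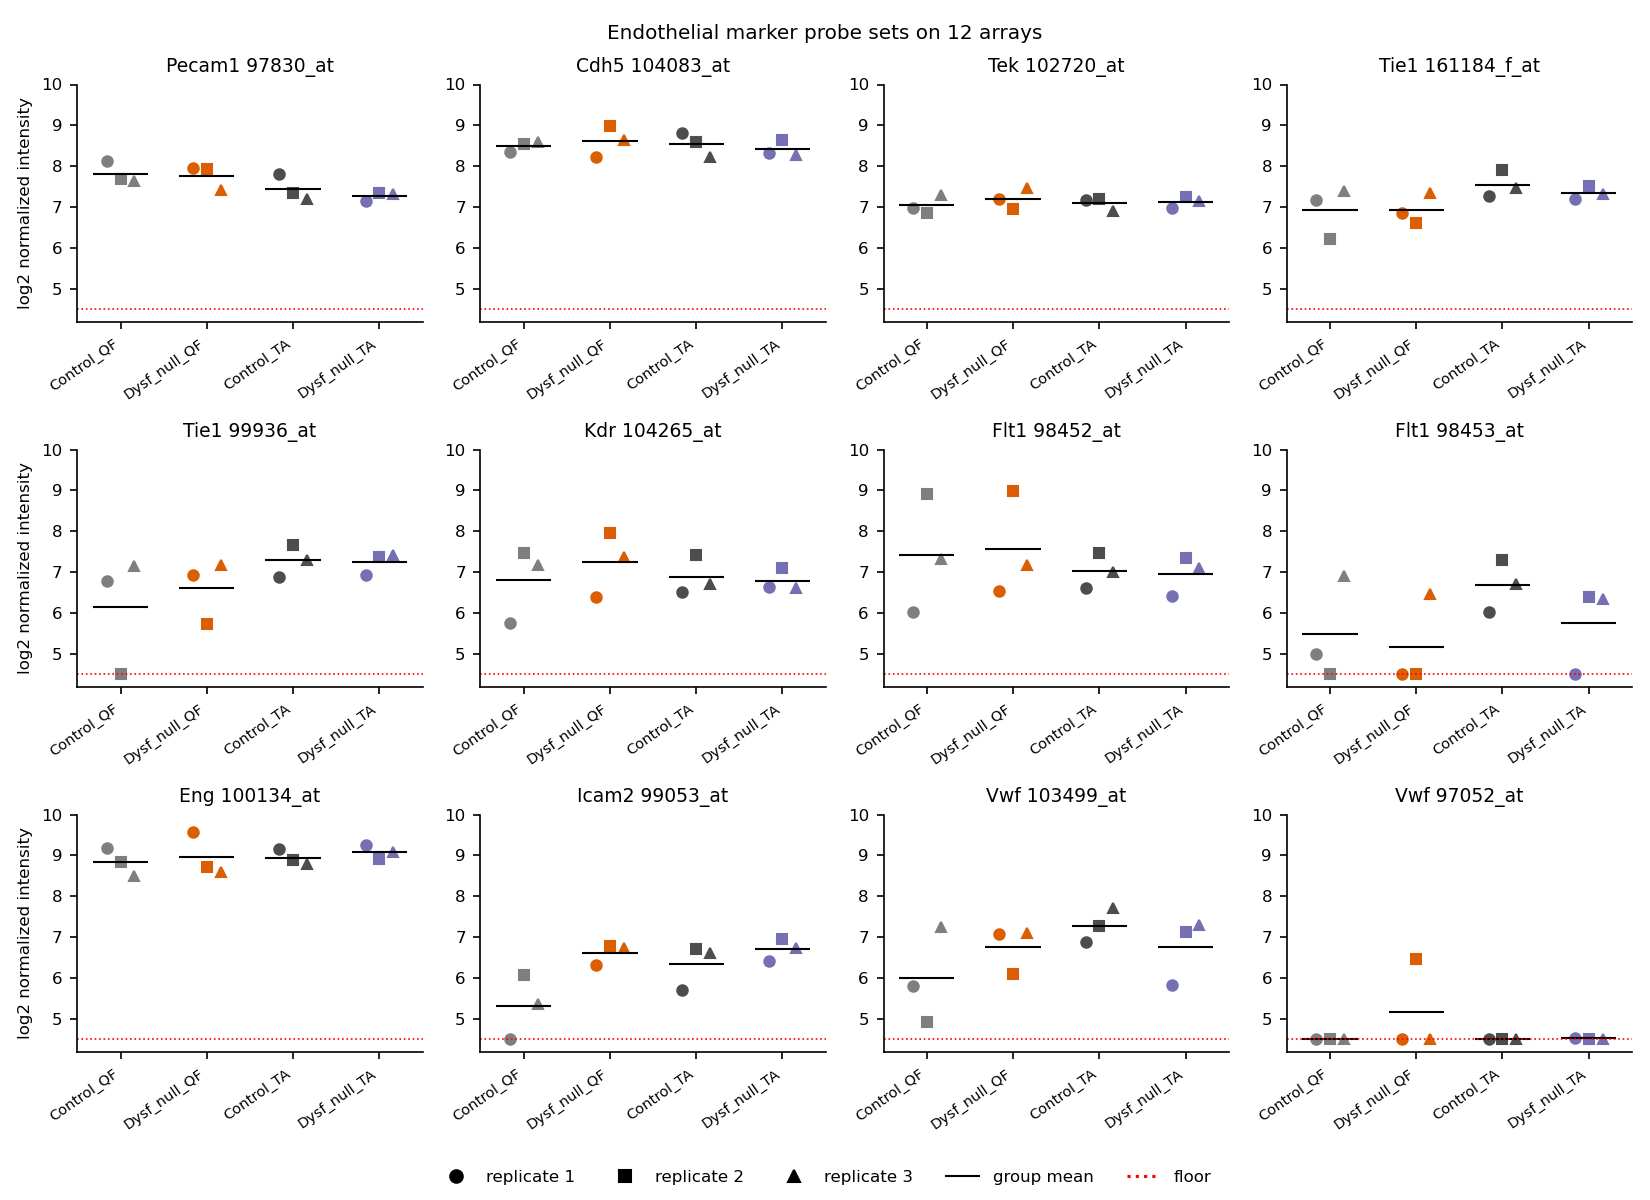
Each panel plots 1 probe set on all 12 arrays as log2 normalized intensity by group, with the symbol giving the replicate number, a black bar the group mean (n = 3) and the dotted line the floor at 4.53. Within a muscle the genotypes overlap in every panel except Icam2 in QF, where the 3 Dysf_null_QF arrays (6.33 to 6.78) lie above the 3 Control_QF arrays (4.53 to 6.09).

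Among the junction proteins, Icam2 came nearest to a genotype difference. Icam2 is an adhesion molecule of endothelial cells that leukocytes and platelets also carry. Its log2 level was 6.33, 6.78 and 6.73 on the Dysf_null_QF arrays and 4.53 (the floor), 6.09 and 5.38 on the Control_QF arrays, in replicate order. After normalization every Dysf_null_QF array was above every Control_QF array, a pattern that 4.08% of all tested probe sets showed in this direction. As deposited, the groups overlapped: Control_QF 2 had an intensity of 90 and Dysf_null_QF 1 one of 80.8. The difference was 1.28 ± 0.42 (SE, n = 3 against 3; 95% interval 0.38 to 2.19; limma adjusted p = 0.368), and its size is limited by the control array at the floor. In TA the levels were 6.42, 6.95 and 6.75 in Dysf_null and 5.71, 6.71 and 6.61 in Control, which overlapped, with a difference of 0.36 ± 0.42 (adjusted p = 1). Averaged over both muscles the difference was 0.82 ± 0.30 (95% interval 0.18 to 1.47, limma adjusted p = 0.374). In TA the Dysf_null array was above the Control array of the same number by 0.71, 0.24 and 0.14, in replicate order. The share of all probe sets with such a pattern was not computed.

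Icam2 did not pass the adjusted threshold under any setting tried, and its adjusted p in QF ranged from 0.0523, under the replicate block, to 1. For the average over both muscles the lowest was 0.0502, with that block and without both QF arrays numbered 2, a setting chosen after seeing the data. Without Control_QF 2 its QF difference was 1.66, without Control_QF 1 it was 0.88, and without both QF arrays numbered 2 it was 1.58 (adjusted p = 0.301). In TA its difference was 0.047 without Control_TA 1. The interaction for Icam2 was -0.92 ± 0.59 (adjusted p = 1), and -0.52 without Control_QF 1, so a difference between the muscles in the genotype effect did not pass. Of 12 measured leukocyte markers 0 passed the limma test for genotype in QF, 2 at an unadjusted p under 0.05. Their summed level was 3856 to 4799 in Dysf_null_QF and 3060 to 3791 in Control_QF, which did not overlap. None of the 12 was at the floor on all arrays of either group. This separation was not particular to leukocytes. The sums of the mural cell, red cell, fibroblast and basement membrane genes described below were also higher on every Dysf_null_QF array. The 4 measured platelet genes overlapped between these groups, with sums of 117 to 338 and 111 to 178. The sums of the remaining lists overlapped too. The part of leukocytes in the Icam2 values was not tested.

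Pecam1 and Cdh5 showed no such separation of the genotypes. Pecam1, which links neighbouring endothelial cells at their borders, lay at 7.95, 7.93 and 7.42 in Dysf_null_QF, 8.13, 7.70 and 7.64 in Control_QF, 7.16, 7.34 and 7.32 in Dysf_null_TA and 7.82, 7.35 and 7.20 in Control_TA. The QF arrays were mostly the higher, and in Dysf_null all 3 QF arrays lay above all 3 TA arrays, as for 4.51% of all probe sets. TA minus QF averaged over the genotypes was -0.43 ± 0.17 (95% interval -0.80 to -0.06; limma adjusted p = 0.319). Its genotype difference averaged over the muscles was -0.12 ± 0.17 (95% interval -0.49 to 0.25). Cdh5, VE-cadherin, the adhesion molecule of endothelial junctions, spanned 8.23 to 8.98 over the 12 arrays, with group means of 8.42 to 8.62. Its averaged genotype difference was -0.0030 ± 0.15 and its averaged muscle difference -0.08 ± 0.15. The 95% interval of the former runs from -0.33 to 0.33, or 0.794 to 1.25-fold, so a change in Cdh5 larger than that lies outside it.

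**Figure D2:**
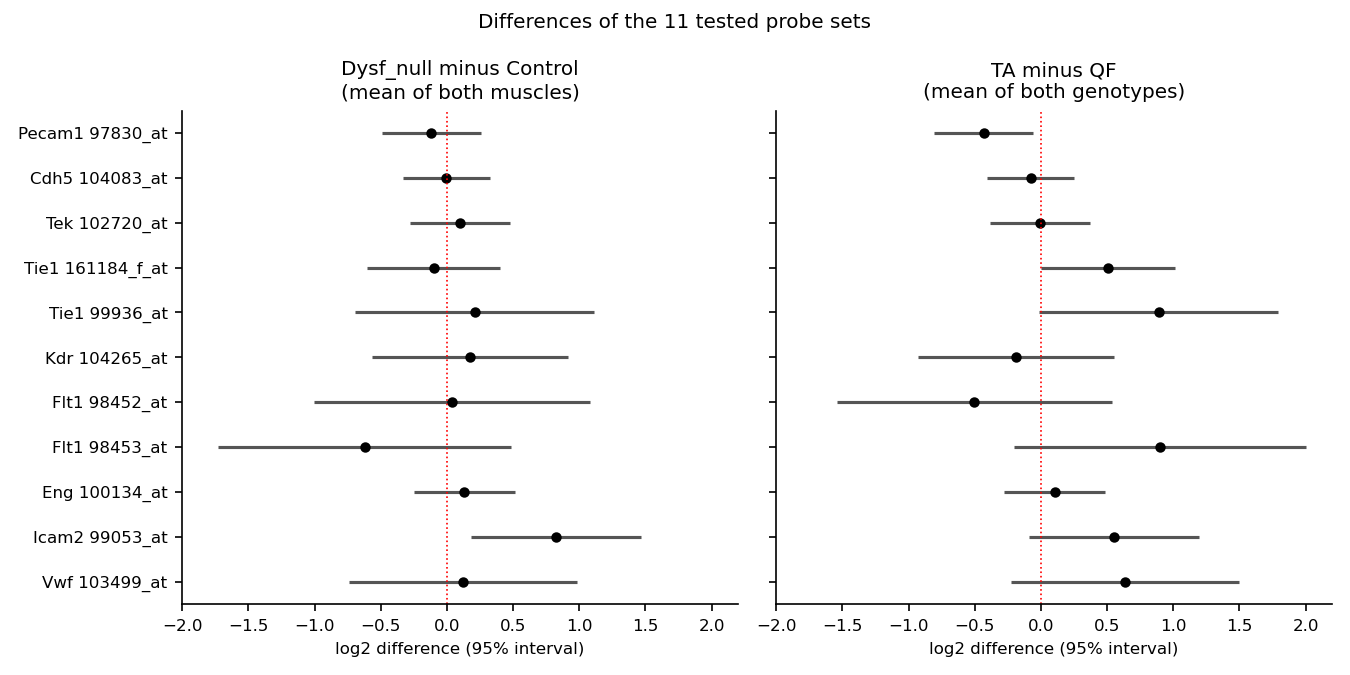
Points are log2 differences of the 11 tested probe sets and bars their 95% intervals from the limma fit, for Dysf_null minus Control averaged over both muscles (left) and TA minus QF averaged over both genotypes (right). Icam2 at left, 0.82, and Pecam1 (-0.43) and the Tie1 probe set 161184_f_at (0.51) at right have unadjusted intervals that leave out 0, and their adjusted p-values were 0.374, 0.319 and 0.383.

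For the receptors described next, the sequence before a transcript start is shown because ETS factors are known regulators of endothelial receptor genes and because Kdr and Flt1 (98452_at) rose and fell together over the arrays. Tie1 and Flt1 (99936_at and 98452_at) did so over the 10 arrays without the QF arrays numbered 2 (r = 0.866) but not over all 12 (r = -0.67). RefSeq promoters (GRCm38.p6) were given for 5 of the 9 members, and the 250 bases before the start used in that table are printed for Kdr, Flt1 and Tie1. For Kdr, Flt1 and Tek this start lies inside the annotated gene, so their windows lie wholly (Kdr and Flt1) or mostly (Tek) within it. Capitals mark the ETS-type hexamers AGGAAG and CGGAAG on either strand (CTTCCT or CTTCCG on the other), which do not overlap here. Other forms of the ETS site were not searched.
Flt1 (chr5:147726012-147726261, minus strand): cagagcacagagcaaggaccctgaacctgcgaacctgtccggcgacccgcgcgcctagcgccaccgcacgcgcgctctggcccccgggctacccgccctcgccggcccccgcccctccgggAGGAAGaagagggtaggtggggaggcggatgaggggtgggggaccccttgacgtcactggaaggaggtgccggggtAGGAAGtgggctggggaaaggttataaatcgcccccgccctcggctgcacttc
Kdr (chr5:75978456-75978705, minus strand): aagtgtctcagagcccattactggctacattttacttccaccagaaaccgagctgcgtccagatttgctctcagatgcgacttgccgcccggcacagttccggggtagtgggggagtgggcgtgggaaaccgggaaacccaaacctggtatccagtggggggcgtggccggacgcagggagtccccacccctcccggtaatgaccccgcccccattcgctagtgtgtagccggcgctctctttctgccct
Tie1 (chr4:118489850-118490099, minus strand): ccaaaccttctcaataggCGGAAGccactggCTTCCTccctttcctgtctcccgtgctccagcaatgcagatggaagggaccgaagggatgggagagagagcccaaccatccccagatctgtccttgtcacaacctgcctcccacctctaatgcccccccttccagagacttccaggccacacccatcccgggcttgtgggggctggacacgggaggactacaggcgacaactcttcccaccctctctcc
At least 1 of these hexamers was found in 3 of the 5 members (Flt1, Tie1 and Eng) and in 39.2% of all 32851 promoters of the same length. In Flt1 they began 129 and 53 bases before the start, and in Tie1 232 and 219 bases before it. Kdr and Tek held neither hexamer in this window, which does not show that they lack ETS sites. A GATA motif (AGATAA) was in 0 of 5, against 9.99% of all promoters, and TATAAA in Flt1 alone, against 12.4%.

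Neither angiopoietin receptor passed a test, and Tie1 had the larger values of TA minus QF. Tek, the receptor that binds the angiopoietins, spanned 6.86 to 7.48, with an averaged genotype difference of 0.10 ± 0.17 (95% interval -0.28 to 0.47) and an averaged muscle difference of -0.0083 ± 0.17. Tie1, an orphan receptor that modulates Tek, had a pair of probe sets. On 99936_at its levels were 6.92, 5.74 and 7.17 in Dysf_null_QF, 6.79, 4.53 (the floor) and 7.14 in Control_QF, 6.93, 7.39 and 7.43 in Dysf_null_TA and 6.88, 7.68 and 7.31 in Control_TA. The QF arrays numbered 2 were the 2 lowest of all 12, and the other QF arrays reached into the range of TA. TA minus QF averaged 0.89 ± 0.42 (limma adjusted p = 0.389) on this probe set and 0.51 ± 0.23 (adjusted p = 0.383) on 161184_f_at. Without both QF arrays numbered 2 these values were 0.26 and 0.25 (adjusted p = 0.785 and 0.758), and without Control_QF 2 alone 0.48 and 0.33. The genotype differences averaged 0.21 ± 0.42 and -0.10 ± 0.23 on these probe sets, and 0.02 and -0.19 without both QF arrays numbered 2.

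Flt1 had the widest spread between replicates of the 11 tested probe sets, with a pooled SD within groups of 1.01 and 1.05 on its probe sets, and Kdr had one of 0.669. Kdr, the main signalling receptor for VEGF-A, lay at 6.39, 7.97 and 7.38 in Dysf_null_QF, 5.76, 7.48 and 7.18 in Control_QF, 6.64, 7.11 and 6.62 in Dysf_null_TA and 6.51, 7.43 and 6.71 in Control_TA. Array 2 was the highest in each of the 4 groups. Flt1, the high-affinity receptor that also acts as a decoy for VEGF-A, lay on probe set 98452_at at 6.55, 8.99 and 7.19 in Dysf_null_QF, 6.04, 8.91 and 7.33 in Control_QF, 6.42, 7.35 and 7.12 in Dysf_null_TA and 6.62, 7.47 and 7.01 in Control_TA. Array 2 was again the highest and array 1 the lowest in all 4 groups, and the QF arrays numbered 2 exceeded the highest of the other 10 arrays (7.47) by over 1 log2 unit. The averaged genotype differences were 0.17 ± 0.34 for Kdr and 0.04 ± 0.48 for Flt1, and the averaged muscle differences -0.19 ± 0.34 and -0.50 ± 0.48. Without both QF arrays numbered 2 these muscle differences turned to 0.16 and 0.22 (limma adjusted p = 0.936 and 0.903), so their direction rests on those arrays.

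The second Flt1 probe set, 98453_at, gave another order of the groups. It was at the floor on 4 of the 12 arrays, and its levels were 4.53, 4.53 and 6.46 in Dysf_null_QF, 5.01, 4.53 and 6.91 in Control_QF, 4.53, 6.41 and 6.36 in Dysf_null_TA and 6.03, 7.31 and 6.72 in Control_TA. Both QF arrays numbered 2, the highest on 98452_at, were at the floor here. TA minus QF averaged 0.90 ± 0.51 (limma adjusted p = 0.468), against -0.50 on 98452_at, and the genotype difference averaged -0.62 ± 0.51 (adjusted p = 0.992). Without both QF arrays numbered 2 the muscle difference was 0.50 here (adjusted p = 0.871) and 0.22 on 98452_at. Over the 10 arrays without the QF arrays numbered 2 the Flt1 probe sets rose and fell together (Pearson r = 0.867, permutation p = 0.00157, 0.0227 adjusted over 55 pairs; Spearman rho = 0.839, permutation p = 0.00399, adjusted 0.0349), and r was 0.831 without the 2 arrays farthest from the median. Over all 12 arrays r was -0.13. The permutations took no account of group or replicate number, so the permutation p-values of this pair may be too small.

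Eng and Vwf complete the set. Eng, or endoglin, a co-receptor for TGF-beta and BMP ligands, spanned 8.50 to 9.58, with an averaged genotype difference of 0.13 ± 0.18 (95% interval -0.25 to 0.51) and an averaged muscle difference of 0.11 ± 0.18. Array 1 was its highest in all 4 groups. Vwf, the glycoprotein that endothelial cells store and release to bind platelets, lay on 103499_at at 7.08, 6.12 and 7.11 in Dysf_null_QF, 5.80, 4.94 and 7.25 in Control_QF, 5.84, 7.12 and 7.31 in Dysf_null_TA and 6.88, 7.27 and 7.71 in Control_TA. Array 3 was the highest in each group, and the groups compared overlapped. The genotype difference was 0.77 ± 0.56 in QF and -0.53 ± 0.56 in TA, and the interaction was -1.30 ± 0.79 (limma adjusted p = 1). TA minus QF was 1.29 ± 0.56 in Control (adjusted p = 0.478) and -0.01 ± 0.56 in Dysf_null. Single arrays set the size of these values: in QF the genotype difference was 0.24 without Control_QF 2 and 1.40 without Control_QF 3, and in TA it was -0.068 without Dysf_null_TA 1, -0.80 without Dysf_null_TA 3 and -0.32 without Control_TA 3. The interaction was -0.77 without Control_QF 2 and -0.84 without Dysf_null_TA 1, and TA minus QF in Control was 0.76 without Control_QF 2. Without both QF arrays numbered 2 the genotype difference in QF was 0.57 and the interaction -1.09. In Dysf_null, TA minus QF ranged from -0.34 to 0.45 without single arrays.

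**Figure D3:**
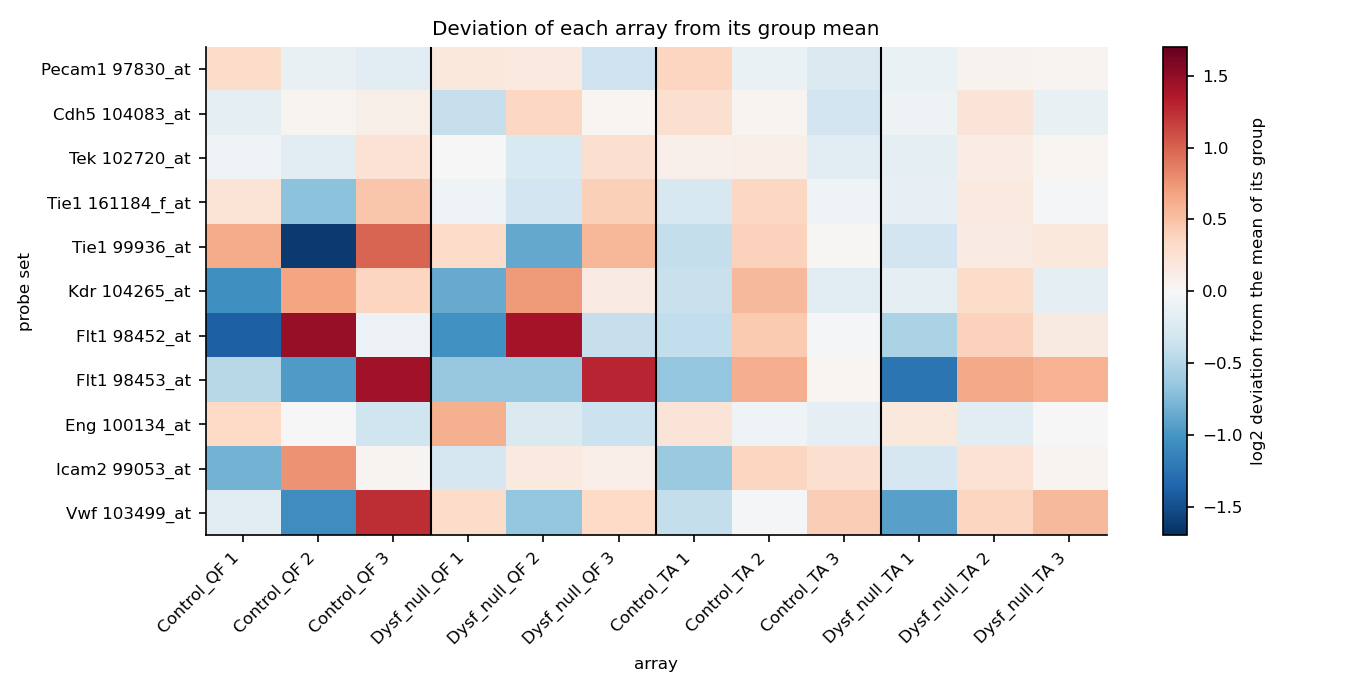
Colours give the log2 deviation of each array (columns, by group and replicate number) from the mean of its own group for the 11 tested probe sets (rows). The QF arrays numbered 2 of both genotypes share the same sign in 9 of 11 rows, with Flt1 98452_at at 1.42 and 1.48 and Tie1 99936_at at -0.87 and -1.63.

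Several deviations from the group means were alike on arrays with the same replicate number. The Dysf_null and the Control array numbered 2 in QF deviated in the same direction for 9 of 11 members, 4 upward and 5 downward, as did 73.7% of all tested probe sets. Flt1 on 98452_at and Icam2 were lowest on array 1 and highest on array 2 in 4 of 4 groups, and Vwf was highest on array 3 in 4 of 4. How many of all probe sets had such a 4 of 4 pattern was not computed. Over all tested probe sets, deviations of same-numbered arrays did not correlate between muscles (-0.14 to 0.12). The members did not move as one set: of 55 pairs of probe sets over the 10 arrays without the QF arrays numbered 2, r was positive for 38 and negative for 17. Every negative pair held Eng or Pecam1, except Cdh5 with Icam2 (r = -0.04), and Pecam1 with Eng was positive (r = 0.40). The share of positive pairs over all probe sets was not computed. Both Pearson and Spearman adjusted permutation p-values were under 0.05 for 6 pairs. Among these were the Flt1 probe sets with each other and the Tie1 probe sets with each other, and every other one held a Flt1 probe set. The permutations took no account of the groups and replicate numbers that the arrays share, so the permutation p-values given here may be too small. By Pearson's r over these 10 arrays, Kdr and Flt1 on 98452_at formed the closest pair (r = 0.903, permutation p = 0.00031, adjusted 0.0099; rho = 0.855, permutation p = 0.00313, adjusted 0.0349; r = 0.780 without the 2 arrays farthest from the median, and r = 0.874 over all 12). By rho the closest positive pair was Tie1 on 161184_f_at with Flt1 on 98453_at (0.894), and over all 12 arrays the Tie1 probe sets had r = 0.929. Flt1 on 98453_at and Eng went opposite ways (r = -0.818, permutation p = 0.00323, adjusted 0.0296; rho = -0.912, permutation p = 0.00059, adjusted 0.0211; r = -0.645 without the 2 farthest), and over all 12 arrays their r was -0.516.

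The 9 member genes, taken with their brightest probe set each, had a median genotype difference of 0.15 in QF and -0.10 in TA, where the median over all tested probe sets was -0.01 and -0.0027. Positive differences were seen for 8 of 9 genes in QF and 3 of 9 in TA, against 48.5% and 48.8% of all probe sets. In QF those of Cdh5, Tek, Tie1, Kdr, Flt1 and Eng were each smaller than their SE. The genes were read on the same arrays, so their signs are not independent. TA minus QF had a median of 0.08 in Control and -0.07 in Dysf_null (all probe sets, 0 and 0.02). The summed level of the 9 genes was 1862 to 2330 in Dysf_null_QF, 1657 to 1993 in Control_QF, 1680 to 1938 in Dysf_null_TA and 1728 to 2016 in Control_TA, so the 4 groups overlapped.

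Of 12 measured ligands and co-receptors of these pathways, 0 passed the limma test in any comparison. Vegfa, the main ligand of Kdr and Flt1, gave 0.74 ± 0.24 for TA minus QF in Dysf_null (limma adjusted p = 0.603). Angpt1, the activating ligand of Tek, gave 1.07 ± 0.41 for genotype in TA (limma adjusted p = 0.78). Of 32 further endothelial genes 0 passed, with a median genotype difference of 0.05 in QF and 0.02 in TA. The nearest to the threshold was Klf4, a flow-responsive transcription factor, at 0.84 ± 0.20 averaged over the muscles (adjusted p = 0.0748). TA minus QF was positive for 24 of these 32 in Control and 22 in Dysf_null (49.9% and 52.2% of all probe sets), with medians of 0.21 and 0.14. Of 4 measured lymphatic genes 0 passed.

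Of 12 mural cell genes, Acta2, the actin of smooth muscle, was lower in TA by 0.99 ± 0.14 averaged over the genotypes (limma adjusted p = 0.00224), and Rgs5, a pericyte marker, gave 0.98 ± 0.26 the other way (adjusted p = 0.107). Of 11 basement membrane genes, Sparc, a matrix protein, rose in Dysf_null by 0.72 ± 0.09 averaged over the muscles (adjusted p = 0.0018) and 10 did not pass. Their median genotype difference was 0.40 in QF and -0.04 in TA. Of 4 measured red cell genes, 3 rose in TA and 1 in QF, with median differences of 0.99 and 0.63, and of 9 fibroblast genes 1 rose in QF (Thy1, 1.19 ± 0.23, adjusted p = 0.0394) with a median of 0.75. In TA the fibroblast median was 0.32 and 0 of 9 passed. All 9 differences were positive in each muscle, against 48.5% (QF) and 48.8% (TA) of all probe sets. Col1a1 rose by 0.92 ± 0.19 averaged over the muscles (limma adjusted p = 0.0413). Of the 12 leukocyte genes, Lyz2, lysozyme of myeloid cells, rose by 0.70 ± 0.13 averaged over the muscles (adjusted p = 0.0219), and Cd68, a macrophage marker, gave -1.27 ± 0.19 for Dysf_null minus Control in TA (adjusted p = 0.0104). In Control, Cd68 was higher in TA than in QF by 1.60 ± 0.19 (limma adjusted p = 0.000931). These Cd68 values come from 1 of its 2 probe sets. Of 9 muscle fibre genes Mb, myoglobin, was higher in TA by 0.87 ± 0.10 (adjusted p = 0.000355) and 8 did not pass. A difference between these lists and the endothelial members was not tested.

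**Figure D4:**
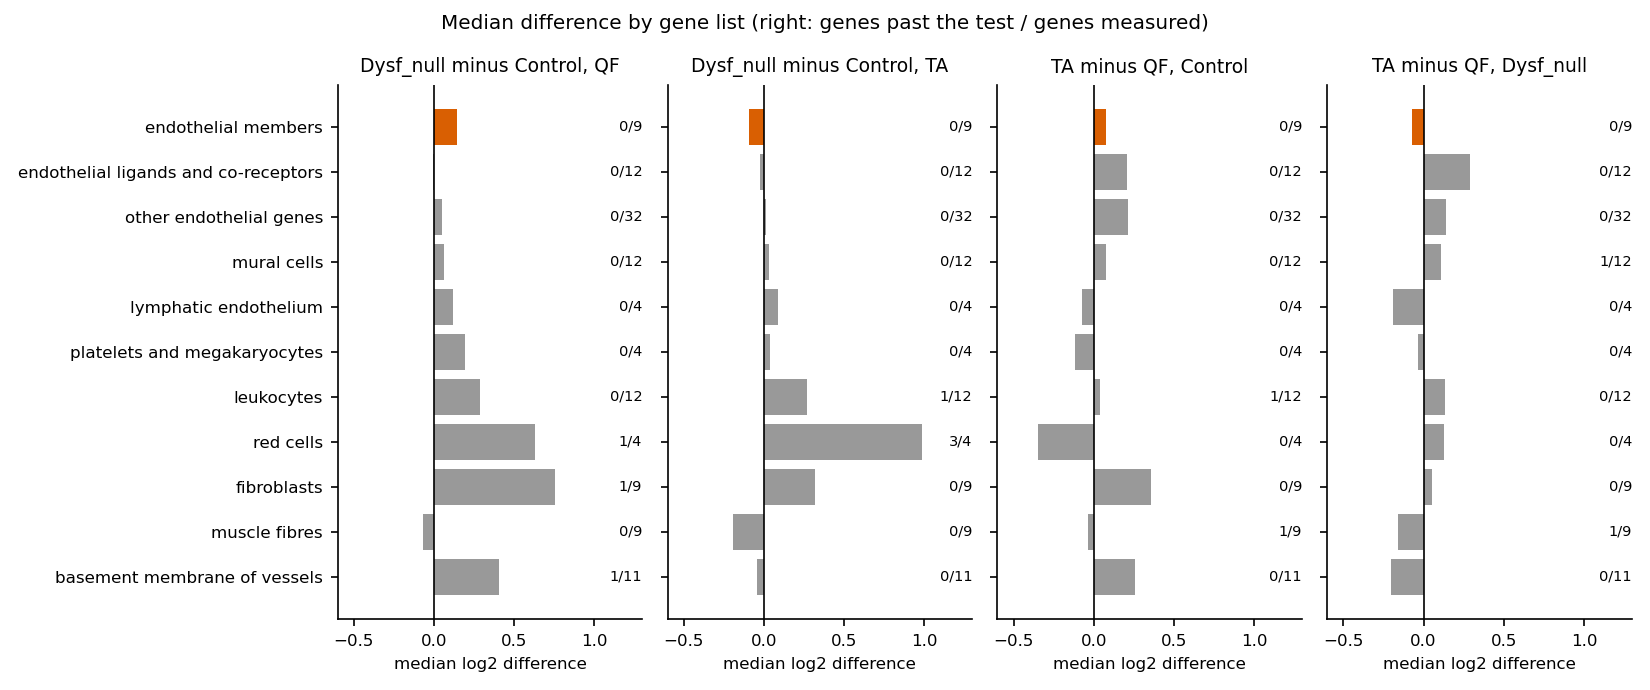
Bars give the median log2 difference over the measured genes of each list (endothelial members in orange) in 4 comparisons, and the figures at the right of each panel count genes with an adjusted p under 0.05 out of those measured. The endothelial members have medians of 0.15, -0.10, 0.08 and -0.07 with 0 of 9 genes passing in each panel, while the red cell list reaches 0.99 in TA with 3 of 4.

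The genes most like the members over the arrays came from none of the endothelial lists. The mean of the 9 members, each centred over the 12 arrays, correlated most closely among 9141 other named probe sets with Lpgat1 (Pearson r = 0.904, Spearman rho = 0.734), Ctsb (0.895 and 0.867), Mrpl48 (0.887 and 0.748), Phf5a (0.870 and 0.839), B4galt6 (0.863 and 0.692) and Ppp1r7 (0.854 and 0.846). Using deviations from group means, the closest were Gna11 (r = 0.969), Serpinf1 (0.966), Pstpip2 (0.947), Atn1 (0.917), Abcd4 (0.912) and Pelo (0.911). These were picked as the highest of many, over 12 arrays that share muscles and replicate numbers, and carry no test.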

How the data were processed

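Total RNA from 12 muscle samples had been hybridised to 12 single-channel arrays. The authors deposited linear-scale intensities, scaled beforehand to a common mean per array, as the values show (mean without the lowest and highest 2%, 200.1 to 200.2); their software is not given in the sources used here. After removal of 66 control probe sets, the values were quantile normalized, since array medians differed 1.47-fold. They were set to a floor at the 25th percentile (intensity 23.025) and converted to log2. Those exceeding it on 3 arrays or more, 10331 of 12422 probe sets, entered a limma (3.58.1, R 4.3.3) model of 4 group means over all 12 arrays, with an intensity trend and 8 residual degrees of freedom. Tests were two-sided, with Benjamini-Hochberg adjustment over all of them, and an adjusted p under 0.05 was called. An SE is that of this fit, and no depth applies to arrays, whose number limits the precision. The fit was tested on simulated data with independent noise on each array. Those data held no deviations shared by same-numbered arrays, so that test does not cover them.

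Probe sets were named from the platform annotation: 10833 had 1 symbol, and the 396 with several and 1193 not in that table were not named. Every member was described; of the other lists, genes called or up to 4 with the smallest p were eligible to be named. The members and lists were chosen with earlier results of these data known. Deviations of same-numbered arrays from their group means correlated between genotypes in QF (0.39, 0.71 and 0.66) and more weakly in TA (0.18, 0.11 and 0.23). Between muscles these deviations did not correlate (-0.14 to 0.12). The labels do not say what the number marks, and arrays with different numbers were not compared, so a pairing of the genotypes was not established. Pair correlations used 100000 permutations of the arrays, without regard to group or replicate number. Plots were made in matplotlib 3.10.9 (Python 3.11.15).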

Additional observations from a re-analysis of the deposited data

How the results depend on the processing

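For the 11 member probe sets, 0 were called in any of the 7 comparisons under any alternative run (other scalings, floors, filters and variance models, array weights, the replicate block, fewer arrays). The median of the 9 member genes moved by less than the spread between replicates under all of them except for the interaction without Dysf_null_QF 1 (range over single arrays left out -0.45 to -0.13). That spread, 0.21, is larger than most of these medians, so a change of sign can lie within it. Over the alternatives the median crossed 0 for genotype in TA (-0.24 to 0.09) and the genotype average (-0.04 to 0.14). It also crossed 0 for TA minus QF in Dysf_null (-0.19 to 0.007) and averaged (-0.05 to 0.16). The replicate block changed no call of a member.

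Counts over all probe sets moved more. Genotype in QF gave 47, against 0 with median scaling, 7 without the intensity trend, 23 with array weights, 0 with the QF arrays fitted alone, 273 with the replicate block within muscle, 2 without both QF arrays numbered 2, 116 with both of these, and 21 to 82 without single arrays. Genotype in TA gave 42, against 27 with median scaling, 192 with array weights, 159 with the replicate block, 155 with the block and without both QF arrays numbered 2, and 14 to 45 without single arrays. The genotype average gave 113, against 27, 56, 191, 474 and 320 with median scaling, no trend, array weights, the block, and the block without both arrays, and 58 to 132 without single arrays. The interaction gave 7, against 32 with the block, 12 with the block and without both arrays, and 4 to 8. TA against QF in Control gave 76, against 31 with median scaling, 42 without trend, 21 fitted alone, 32 with the replicate block within genotype and 35 to 147 without single arrays. In Dysf_null it gave 31, against 14, 52, 9, 18 and 19 to 38 with median scaling, array weights, fitted alone, that block and single arrays left out. Averaged it gave 115, against 49, 60, 178, 51 and 58 to 156 with median scaling, no trend, array weights, that block and single arrays left out. The block within muscle without both QF arrays was chosen after seeing the data. The cause of these shifts was not tested.

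Some differences changed sign, none of them called: most were near 0, but the averaged muscle difference of Flt1 on 98452_at was -0.50. The averaged muscle difference turned to 0.13 (Cdh5) and 0.035 (Tek) with median scaling; to 0.024 (Cdh5), -0.063 (Eng), 0.10 (Flt1 98452_at) and 0.21 (Kdr) with array weights; and to 0.022 (Cdh5), 0.22 (Flt1) and 0.16 (Kdr) without both QF arrays numbered 2. In Dysf_null, TA minus QF turned to -0.0075 for Icam2 with the deposited scaling, and to 0.016 for Vwf with median scaling and 0.022 with array weights. The averaged genotype difference of Vwf turned to -0.0083 with the floor at the 40th percentile. Without single arrays the averaged genotype differences ranged from -0.091 to 0.094 (Cdh5), -0.020 to 0.22 (Eng), -0.32 to 0.41 (Flt1 98452_at), -0.089 to 0.39 (Kdr), -0.27 to 0.018 and -0.20 to 0.46 (Tie1 161184_f_at and 99936_at) and -0.14 to 0.43 (Vwf). The averaged muscle differences ranged from -0.17 to 0.010 (Cdh5) and -0.073 to 0.059 (Tek), and those in Dysf_null from -0.047 to 0.23 (Icam2) and -0.34 to 0.45 (Vwf).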
